A study of Mus musculus with 60 samples.

Results

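The genes described here encode the proteins of the mitochondrial ribosome. They were taken from the deposited table of normalised read counts as every entry whose symbol begins with Mrpl or Mrps followed by a digit. The rule gave 76 of the 23393 genes of the table, 47 with the prefix Mrpl, for the large subunit, and 29 with the prefix Mrps, for the small subunit. The rule reads the symbol alone. The 7 tested mitoribosomal proteins with other names, such as Ptcd3, are given separately.

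Mitochondrial ribosomes translate the few messenger RNAs made from mitochondrial DNA, all of which encode core subunits of the respiratory chain and ATP synthase. Their own proteins are encoded in the nucleus, made in the cytosol and imported, so the particle joins RNA from one genome with proteins from another. Erythroblasts need mitochondria for heme synthesis, whose first and last steps take place there, and lose them late in maturation. GATA1 is the transcription factor on which erythroblast maturation depends.

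RNA was sequenced from erythroblasts sorted from fetal livers of C57BL/6 mice, either wild type or Gata1s, whose labels give the genotype only as mutant and whose GATA1 lacks its N-terminal part. The R1/2 sort holds cells with high CD71, the transferrin receptor, and no to medium Ter119, a red cell surface antigen. The R3 sort holds the more mature cells with high CD71 and high Ter119. At embryonic day E12.5 the R1/2 cells gave 2 wild type and 4 Gata1s libraries and the R3 cells 3 wild type and 2 Gata1s libraries. At E14.5 R1/2 gave 2 wild type and 3 Gata1s libraries, and R3 gave 2 of each. The 20 libraries held 6.9 to 32.7 M reads, 1 read being worth 0.36 to 4.72 normalised counts. Whether the libraries of a group are from different animals is not said in the labels, and p-values then measure the spread between these samples alone. Values are normalised counts, with group means ± SD over libraries. Differences are on a log2 scale (normalised count plus 1) ± standard error, with limma p-values adjusted over all 9016 genes tested, and a gene was called at an adjusted p under 0.05.

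The sort labels matched the marker genes. The 7 erythroblast markers used, among them Klf1 and Slc4a1, summed to 26403 to 77963 normalised counts in R1/2 and 303690 to 1593664 in R3 libraries, and 7 of 7 were called higher in R3. Whole-gene counts of Gata1 do not check the genotype, because the lesion is at the N-terminus. Markers of other cells were unequal between libraries. The 10 neutrophil and monocyte markers summed to 20465 in wild type E14.5 R1/2 replicate 1 and 785 in replicate 2, and the 8 hepatoblast markers to 3697 in wild type E14.5 R3 replicate 1 and 331 in replicate 2. The 7 megakaryocyte markers summed to 232 to 374 in wild type and 659 to 1324 in Gata1s R1/2, and to 745 to 1164 and 2025 to 4030 in R3. Macrophage markers summed to 32.4 to 588, endothelial markers to at most 131 and mast cell markers to at most 53.5. The part of these cells in the members' values was not tested. Library names start with JC or MS, a prefix whose meaning is not given. All Gata1s R3 libraries are MS, while 1 wild type R3 library per day is MS, so the comparisons of genotype in R3 rest in part on a term for the prefix.

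All 76 genes passed the filter on low values, a mean of at least 50 over the 20 libraries. The lowest count of a member in any library was 2 reads, for Mrps6, and 68 members had at least 50 reads in every library. Means over all libraries ran from 151 normalised counts for Mrps6 to 2012 for Mrpl12, and 13 members exceeded 1000. In RefSeq (GRCm38.p6) 24 of the members overlap another gene, among them Mrpl2, Mrpl14, Mrpl18, Mrpl19, Mrpl24, Mrpl33, Mrpl43, Mrpl48, Mrpl49, Mrpl53, Mrps2, Mrps6, Mrps7, Mrps9, Mrps18a, Mrps18b, Mrps27 and Mrps28, all named below. The libraries were directional, but whether counting used the strand is not stated, so values of these genes are less certain.

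Promoters are shown for 4 members: Mrpl12 and Mrps18b, among the largest falls with maturation, and Mrps18c and Mrps21, among the largest rises. Each runs from 250 bases before to 50 after the annotated start, from RefSeq GRCm38.p6, 5′ to 3′ on the gene's strand. Mrpl12 lies at chr11:120484387-120484686 on the plus strand, Mrps18b at chr17:35916391-35916690 on the minus strand, Mrps18c at chr5:100798509-100798808 on the plus strand, and Mrps21 at chr3:95871465-95871764 on the minus strand. Capitals mark the searched motifs, read on either strand.
Mrpl12: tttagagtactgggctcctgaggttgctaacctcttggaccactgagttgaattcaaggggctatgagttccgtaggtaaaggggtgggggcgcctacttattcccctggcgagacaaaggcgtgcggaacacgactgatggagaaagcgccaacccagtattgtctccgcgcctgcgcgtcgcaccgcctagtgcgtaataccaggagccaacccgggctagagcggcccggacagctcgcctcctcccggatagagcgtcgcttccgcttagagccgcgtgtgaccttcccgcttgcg
Mrps18b: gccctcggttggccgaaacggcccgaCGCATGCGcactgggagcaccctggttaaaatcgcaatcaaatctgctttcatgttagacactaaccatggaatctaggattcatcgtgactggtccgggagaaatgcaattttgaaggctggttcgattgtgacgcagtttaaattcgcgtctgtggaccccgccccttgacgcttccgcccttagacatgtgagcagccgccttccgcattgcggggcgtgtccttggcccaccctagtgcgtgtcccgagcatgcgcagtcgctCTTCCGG
Mrps18c: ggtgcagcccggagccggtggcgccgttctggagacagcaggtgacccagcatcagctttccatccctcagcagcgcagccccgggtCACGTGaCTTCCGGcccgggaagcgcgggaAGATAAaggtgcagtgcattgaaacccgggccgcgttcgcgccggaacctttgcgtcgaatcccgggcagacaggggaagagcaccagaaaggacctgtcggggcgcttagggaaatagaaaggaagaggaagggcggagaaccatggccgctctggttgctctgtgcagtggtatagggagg
Mrps21: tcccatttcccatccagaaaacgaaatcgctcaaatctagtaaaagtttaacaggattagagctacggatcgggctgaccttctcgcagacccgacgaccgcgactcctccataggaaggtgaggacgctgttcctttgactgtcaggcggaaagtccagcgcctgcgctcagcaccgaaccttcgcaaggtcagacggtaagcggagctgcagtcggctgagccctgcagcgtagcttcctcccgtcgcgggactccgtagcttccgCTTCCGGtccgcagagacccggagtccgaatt
The Mrps18b window holds CGCATGCG, a site form of NRF1, a nuclear regulator of mitochondrial genes, and CCGGAAG, a site form of the ETS family that includes the regulator GABPA, here as its reverse complement at the right end. The Mrps18c window holds CACGTG, the E-box bound by MYC among others, then CCGGAAG in reverse complement and AGATAA, a form that the GATA family binds. The Mrps21 window holds CCGGAAG in reverse complement, and the Mrpl12 window none of the 5 motifs searched.

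Of the 76 members, 67 had a promoter in the table, as did 6891 of the genes tested. CCGGAAG stood in 34.3% of the members' promoters, against 22.3% for genes tested and 9.12% of all 27025 promoters. The NRF1 form CGCATGCG stood in 10.4%, against 4.93% and 1.91%, and AAGATGG, a form of YY1, in 19.4%, against 8.52% and 6.48%. AGATAA was found in 16.4%, against 5.91% and 11.4%, and CACGTG in 7.46%, against 11.5% and 7.24%. No searched motif contains another. These are matches of letters in 1 window per gene and were not tested.

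**Figure D1:**
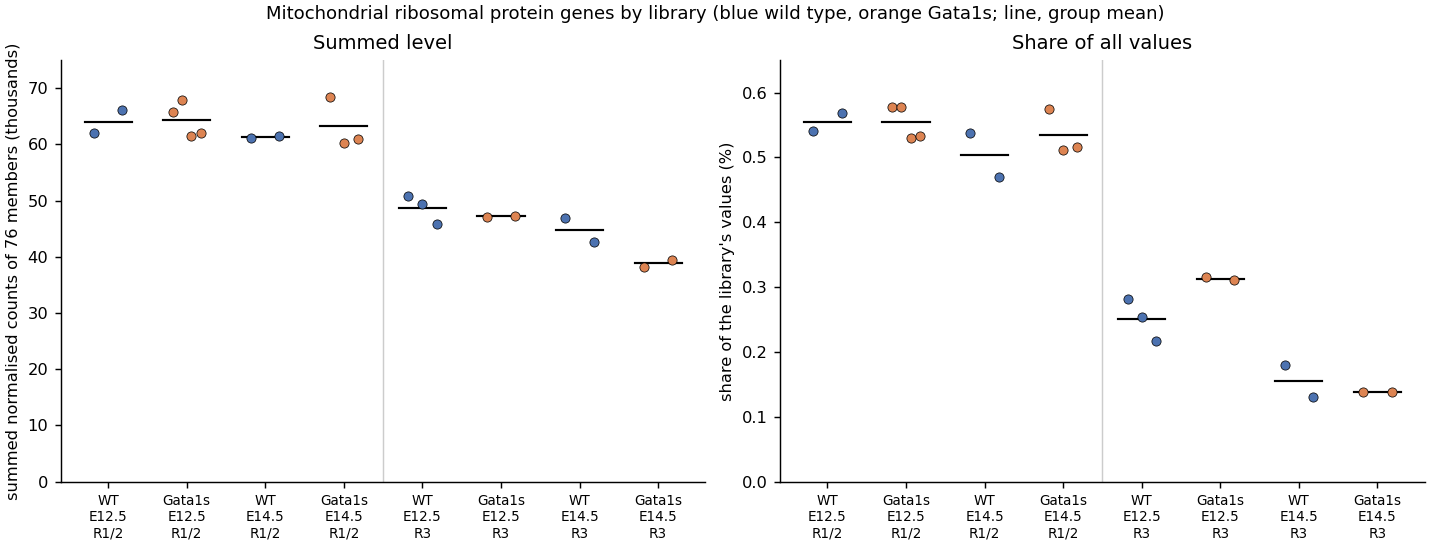
Summed normalised counts of the 76 mitoribosomal protein genes in each library (points), with the group mean (line), by day, sort and genotype, on a linear axis. The 9 R3 libraries lie between 38259 and 50869, below all 11 R1/2 libraries, at 60248 to 68488.

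Summed over the 76 genes, R3 libraries had less mitoribosomal protein RNA than R1/2 libraries, whatever the day or genotype. At E12.5 the sums were 61952 and 66075 normalised counts in wild type R1/2 libraries, 65807, 67818, 61449 and 62095 in Gata1s R1/2, 50869, 49360 and 45879 in wild type R3, and 47071 and 47295 in Gata1s R3. At E14.5 they were 61192 and 61544 in wild type R1/2, 68488, 60248 and 60989 in Gata1s R1/2, 46861 and 42595 in wild type R3, and 38259 and 39377 in Gata1s R3. The plot of summed counts shows no overlap between sorts, and the lowest sums in E14.5 Gata1s R3. In bulk samples fewer cells that express a gene and less RNA per cell cannot be told apart.

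Relative to everything counted, the same genes made up 0.47 to 0.578% of a library in R1/2. In wild type R3 the share was 0.217 to 0.281% at E12.5 and 0.13 to 0.179% at E14.5, and in Gata1s R3 0.311 to 0.315% and 0.138%. Globin genes moved the other way, from 0.3 to 1.4% of a library in R1/2 to 8.5 to 9.7% in wild type and 3.1 to 3.3% in Gata1s E12.5 R3, and to 12.9 to 13.1% and 9.2 to 10.9% in E14.5 R3. The authors' scaling and scaling to total reads place the zero of change differently. Over all genes tested the median difference between R3 and R1/2 was -0.03 with the authors' scaling and -0.91 with total reads, so changes are also given relative to that median.

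Maturation was compared as R3 minus R1/2, averaged over both days and genotypes, with libraries treated as unpaired. With maturation 57 of the 76 members fell and 11 rose, against 45% and 44.3% of all genes tested. The median difference was -0.50, with quartiles at -1.0 and -0.13. It lay 0.48 below the median of all genes with the authors' scaling and 0.47 below it with total reads. With total reads limma called 72 members lower and 0 higher, also at an unadjusted p under 0.05, and calls over all genes turned from 3997 higher and 4061 lower to 1811 and 6635. With every R3 library set against every R1/2 library, 37 members were lower without overlap and 4 higher, against 27.6% and 26.9% of all genes. With the authors' scaling the average thus held rises and falls among genes of a single particle, and with total reads all 72 called changes were falls.

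**Figure D2:**
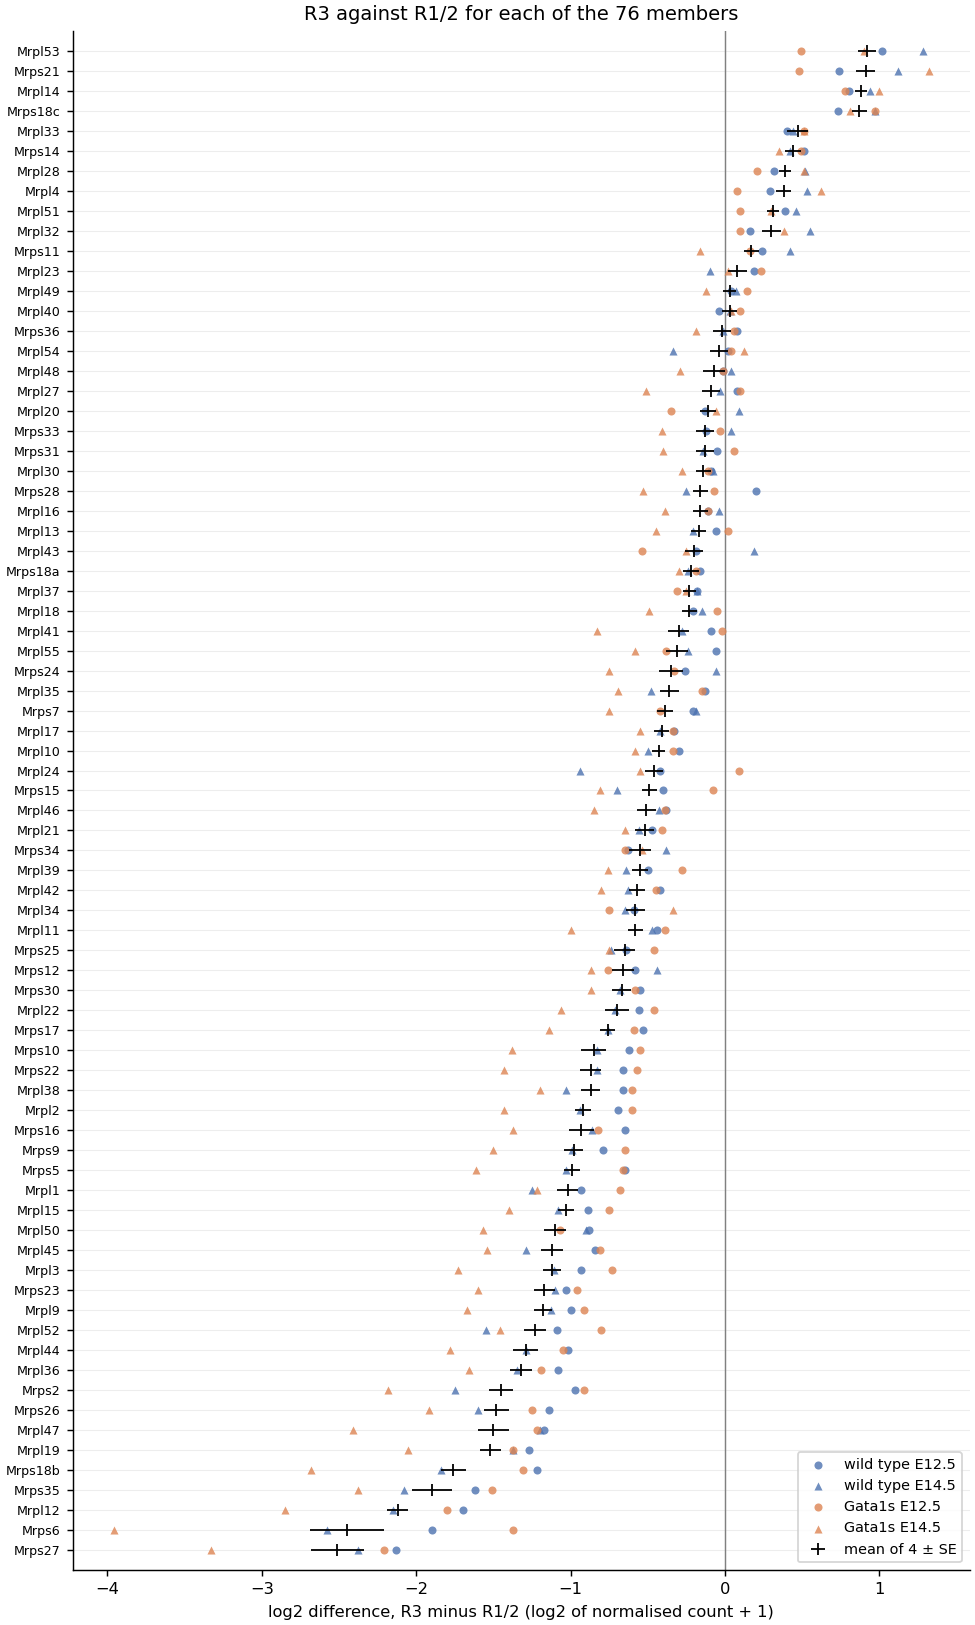
Differences on the log2 scale between R3 and R1/2 (mean of 4 comparisons, ± standard error) for all 76 members, in order of that mean, with the authors' scaling. Points give the single comparisons. Most lie below 0, with Mrps27 at -2.51 and Mrpl53 at 0.92 as the ends; with total reads in place of that scaling no member was called higher.

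Of the 47 members with the prefix Mrpl, 34 fell and 7 rose, with a median of -0.41. Mrpl12 encodes bL12m, the stalk protein that recruits translation factors. It had 2620 to 3524 normalised counts in the 11 R1/2 libraries, with a median of 2958, and 377 to 1081 in the 9 R3 libraries, with a median of 812. No library overlapped between sorts, and the E14.5 R3 libraries, at 741 and 434 in wild type and 402 and 377 in Gata1s, were lowest. The difference was -2.12 ± 0.07 (adjusted p = 3.32e-14), a 4.36-fold fall. Its share of the members' summed counts went from 4.82% to 1.63%, whereas that of Mrpl18, a protein of the central protuberance, was 3.28% and 3.93%.

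Other large falls among these genes were in Mrpl19 (bL19m) and Mrpl47 (uL29m, near the exit of the peptide tunnel). Mrpl19 had 775 to 1304 normalised counts in R1/2 and 243 to 468 in R3, and fell by 1.52 ± 0.07 (adjusted p = 1.54e-12). Mrpl47 had 600 to 767 in R1/2 and 108 to 324 in R3, a difference of -1.50 ± 0.10 (adjusted p = 1.32e-10). Neither gene overlapped between sorts.

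Rises were called for 7 of these members. Mrpl53 (mL53), specific to mitochondria, had 210 to 278 normalised counts in R1/2 libraries and 326 to 689 in R3, with the Gata1s libraries of each day below those of wild type in R3. Its difference was 0.92 ± 0.06 (adjusted p = 2.27e-10). Mrpl14 (uL14m), a conserved core protein at the interface of the subunits, had 353 to 466 and 605 to 852 and a difference of 0.88 ± 0.04 (adjusted p = 1.71e-12). Both were higher in every R3 than in any R1/2 library. Smaller rises were called for Mrpl33 (0.47), Mrpl28 (0.39) and Mrpl4 (0.38), whose libraries of the 2 sorts overlapped. With total reads the rises did not hold: Mrpl53 stood at 0.04 and Mrpl14 at -0.00, which is 0.95 and 0.91 above the median of all genes, while Mrpl33 was at -0.41, Mrpl28 at -0.49 and Mrpl4 at -0.50.

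**Figure D3:**
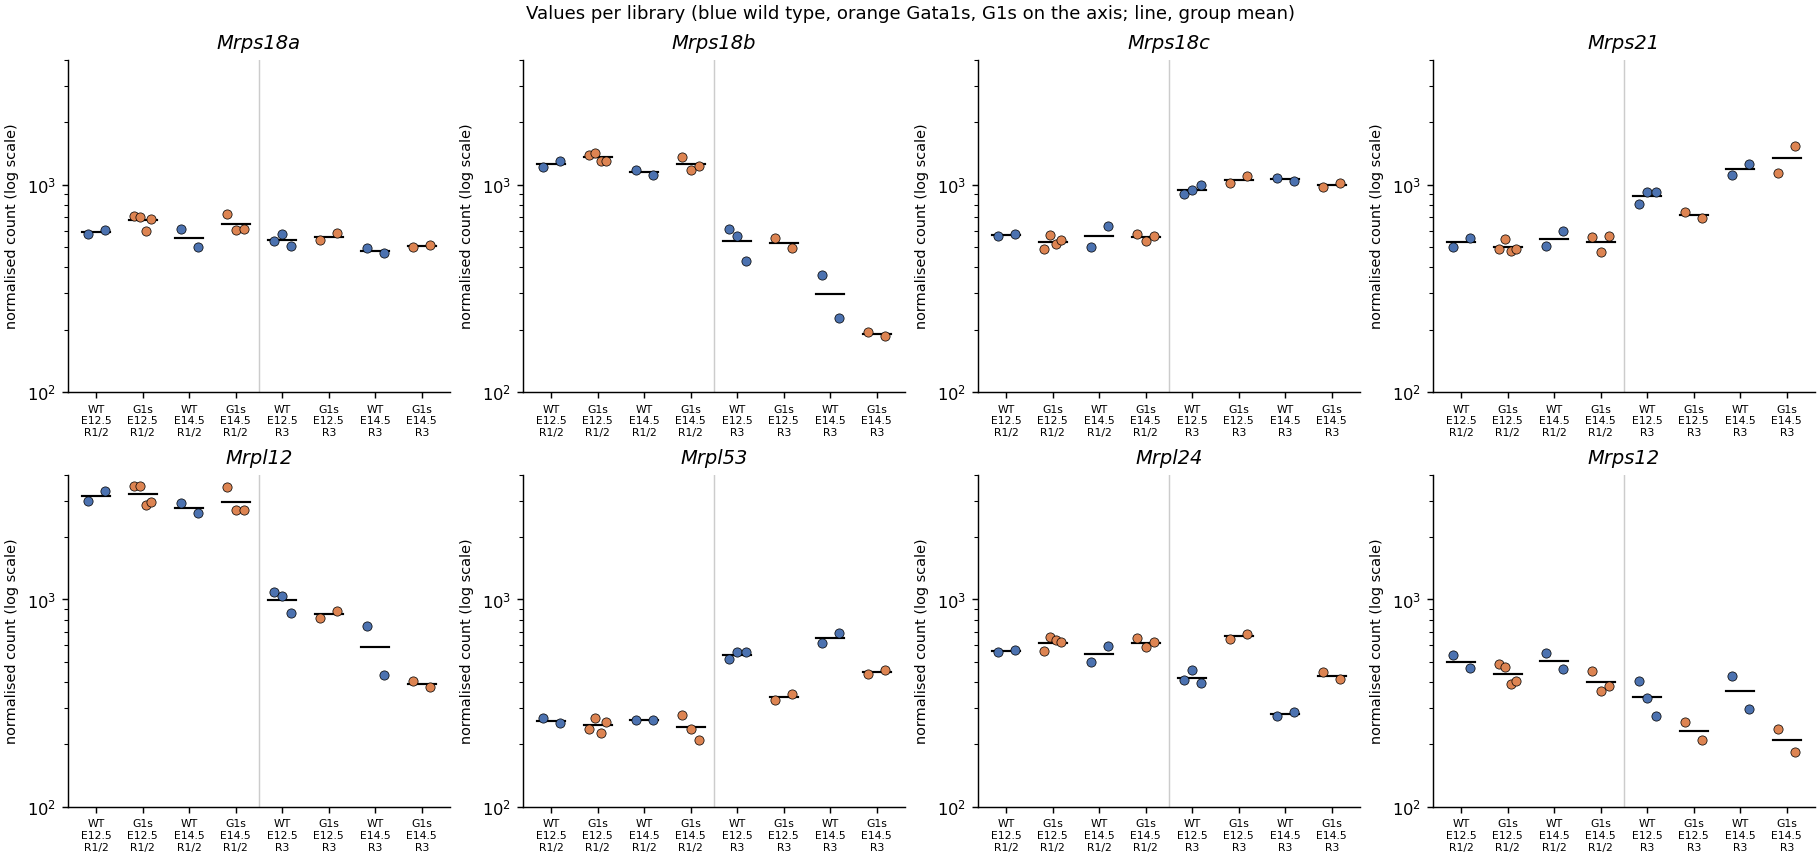
Normalised counts per library (points) on a log axis for example members by day, sort and genotype. Mrpl12 and Mrps18b fall from R1/2 to R3 and Mrps18c and Mrps21 rise with the authors' scaling; with total reads both rises lie near 0.

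Of the 29 members with the prefix Mrps, not all of which lie in the small subunit, 23 fell and 4 rose, with a median of -0.66. The largest falls of all members were here. Mrps27 (mS27), a pentatricopeptide repeat protein, had 534 to 740 normalised counts in R1/2 and 55.3 to 187 in R3, a difference of -2.51 ± 0.17 (adjusted p = 3.76e-10). Mrps35 (mS35) had 597 to 778 and 107 to 265, a difference of -1.90 ± 0.13 (adjusted p = 2.63e-10), and Mrps26 (mS26) fell by 1.48 ± 0.08 (adjusted p = 1.69e-11). Mrps6 (bS6m) had 200 to 260 in R1/2 and 5.39 to 96.7 in R3, a difference of -2.45 ± 0.24 (adjusted p = 5.11e-08), but its lowest R3 value rests on 2 reads. In all 4 genes every R3 library was below every R1/2 library.

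The 3 genes named for S18 did not move together. In bacteria S18 is a single small subunit protein. In human mitoribosomes the MRPS18C product takes the bacterial site, the MRPS18B product lies elsewhere on the small subunit, and the MRPS18A product lies in the large subunit in spite of its name. Mrps18b had 1225 and 1300 normalised counts in wild type and 1396, 1426, 1309 and 1303 in Gata1s E12.5 R1/2 libraries, and 612, 564 and 428 in wild type and 552 and 494 in Gata1s E12.5 R3. At E14.5 it had 1186 and 1115 in wild type and 1359, 1177 and 1237 in Gata1s R1/2, and 366 and 227 in wild type and 195 and 186 in Gata1s R3. Every R3 library was below every R1/2 library, with E14.5 Gata1s R3 the lowest. The difference was -1.76 ± 0.08 (adjusted p = 9.49e-13), and in the single comparisons -1.22 and -1.84 in wild type at E12.5 and E14.5 and -1.31 and -2.68 in Gata1s.

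Mrps18c went in the opposite direction. It had 564 and 579 normalised counts in wild type and 489, 571, 518 and 542 in Gata1s E12.5 R1/2, and 907, 943 and 997 in wild type and 1020 and 1099 in Gata1s E12.5 R3. At E14.5 it had 504 and 631 in wild type and 577, 534 and 569 in Gata1s R1/2, and 1084 and 1048 in wild type and 981 and 1016 in Gata1s R3. The sorts did not overlap, and R3 values were close to each other in all 4 groups. Its difference was 0.87 ± 0.05 (adjusted p = 2.04e-11) with the authors' scaling and -0.02 with total reads, where it lay 0.90 above the median of all genes. Mrps18a changed least of the 3, with 499 to 722 in R1/2 and 467 to 583 in R3, overlapping ranges and a difference of -0.22 ± 0.05 (adjusted p = 0.00105).

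Mrps21 (bS21m) also rose, from 474 to 597 normalised counts in R1/2 to 693 to 1538 in R3 without overlap. The difference was 0.91 ± 0.06 (adjusted p = 3.26e-10), against 0.03 with total reads, 0.94 above the median of all genes. Mrps14 (uS14m) rose by 0.44 ± 0.05 (adjusted p = 8.69e-08), with libraries of the 2 sorts overlapping, and stood at -0.44 with total reads. Falls were thus found in conserved and in mitochondria-specific members. Of the 47 with a bacterial homologue 36 fell and 9 rose, median -0.46, and of the 28 found only in mitochondria 21 fell and 2 rose, median -0.55. Mrps36, which is counted in neither class because its product is now regarded as a subunit of oxoglutarate dehydrogenase, was called in no single maturation comparison.

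Falls outnumbered rises in each genotype at each day. In wild type 46 members fell and 11 rose at E12.5, against 40.9% and 40.1% of all genes, and 45 and 11 at E14.5, against 40.3% and 40.5%. In Gata1s 46 fell and 8 rose at E12.5, against 38.1% and 37.9%, and 57 and 10 at E14.5, against 41.1% and 41%. Median differences were -0.41, -0.48, -0.39 and -0.75 in that order. Called lower in all 4 comparisons were 41 members, against 30.8% of all genes, and higher in all 4 were 7, against 30.2%. The 7 were Mrpl14, Mrpl28, Mrpl33, Mrpl53, Mrps14, Mrps18c and Mrps21. Named after their values were seen, Mrpl40, Mrpl48, Mrpl49 and Mrps36 were called in none, against 5.09% of all genes. Mrps28 was called in both directions, at 0.20 in wild type E12.5 (adjusted p = 0.0314) and -0.53 in Gata1s E14.5 (adjusted p = 0.00113). Across the 76 genes the wild type differences of the 2 days, which share no library but share the prefix term, correlated at r = 0.97 (Spearman's rho 0.95), against 0.96 and 0.97 over all genes.

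**Figure D4:**
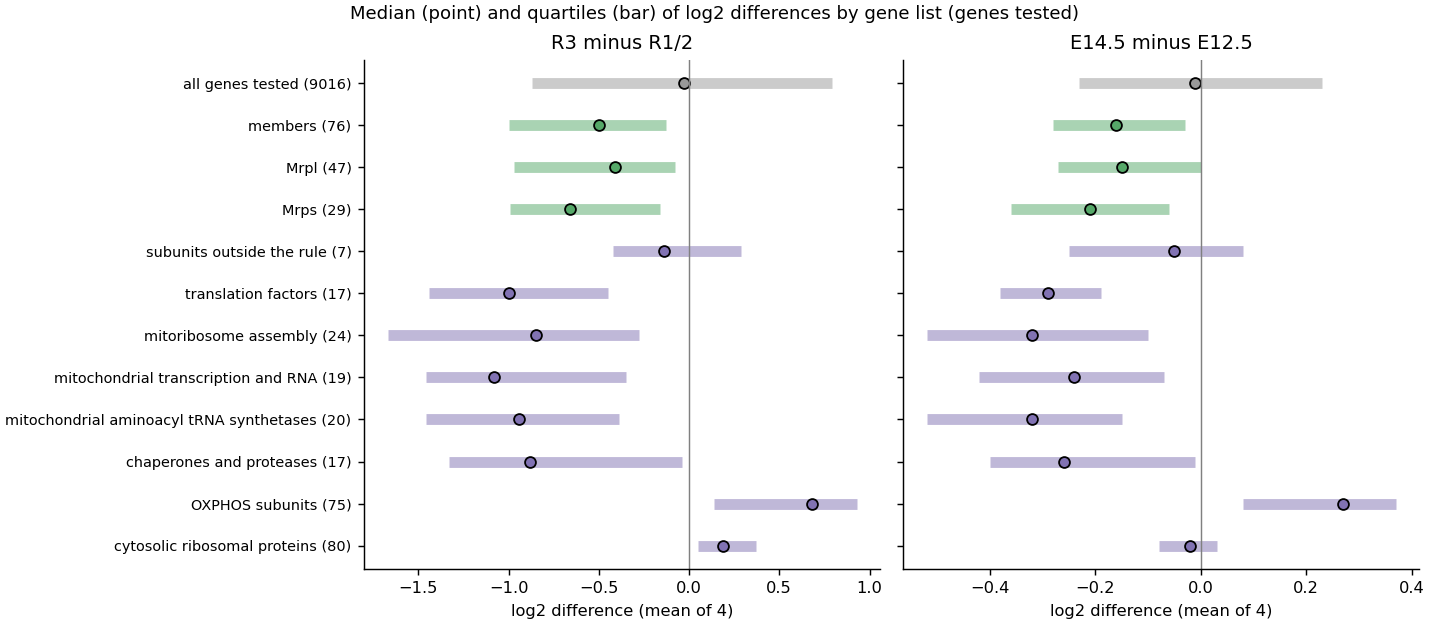
Differences on the log2 scale between R3 and R1/2 (mean of 4 comparisons) with the authors' scaling for the members and for other lists of genes. Each point is the median of a list and each bar runs between its quartiles. The members' median is -0.50, subunits of oxidative phosphorylation have 0.68 and cytosolic ribosomal proteins 0.19. With total reads these become -1.38, -0.21 and -0.70, against -0.91 for all genes. After quantile normalisation they are -0.58, 0.17 and -0.80, against -0.09 for all genes.

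Most other nuclear genes of mitochondrial gene expression that were listed fell too. Of 17 mitochondrial translation factors 13 fell and 2 rose (median -1.0). Tufm, the elongation factor that brings aminoacyl-tRNA to the ribosome, had 3226 ± 115 normalised counts (SD, n = 2) in wild type E12.5 R1/2 and 1232 ± 246 (SD, n = 3) in R3, and a difference over all groups of -1.62 ± 0.06 (adjusted p = 1.72e-13). Among 24 mitoribosome assembly factors 19 fell and 1 rose (median -0.85). The GTPase Noa1 fell by 2.05 ± 0.09 (adjusted p = 7.03e-13), whereas the 1 that rose was Mrm1, a ribosomal RNA methyltransferase, at 1.53 ± 0.06 (adjusted p = 4.01e-13) and 0.65 with total reads.

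Of 19 genes of mitochondrial transcription and RNA handling 16 fell and 1 rose (median -1.08), with Polrmt, the mitochondrial RNA polymerase, at -1.51 ± 0.07 (adjusted p = 1.56e-12). Of 20 mitochondrial aminoacyl-tRNA synthetases 17 fell and 2 rose (median -0.94), with Yars2 at -1.75 ± 0.09 (adjusted p = 4.27e-12). Of 17 mitochondrial chaperones and proteases 12 fell and 4 rose (median -0.88), with Hspa9, the import motor, at -2.19 ± 0.08 (adjusted p = 8.69e-14). The 7 mitoribosomal proteins outside the naming rule had 3 falls and 3 rises, or 7 falls with total reads. Ptcd3 (mS39) fell by 1.45 ± 0.05 (adjusted p = 8.24e-14), and Aurkaip1 (mS38) stood at 0.52 ± 0.05, or -0.36 with total reads.

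The proteins that work beside mitoribosome products moved otherwise. Of 75 nuclear-encoded subunits of oxidative phosphorylation 59 rose and 10 fell, with a median of 0.68. Atp5h, of the ATP synthase stalk, had 2113 ± 29.4 normalised counts (SD, n = 2) in wild type E12.5 R1/2 and 5295 ± 218 (SD, n = 3) in R3, and differed by 1.47 ± 0.05 over all groups (adjusted p = 4.69e-14) and by 0.58 with total reads. With total reads the list turned to 17 rises and 45 falls and a median of -0.21, above the -0.91 of all genes. After quantile normalisation it had 41 rises and 26 falls and a median of 0.17, against -0.09 for all genes. Cytosolic ribosomal proteins had 55 rises and 6 falls of 80, median 0.19, and 2 and 77 with total reads, median -0.70. Both medians lay above that of all genes, but after quantile normalisation 78 of the 80 fell and their median was -0.80, below the -0.09 of all genes and the -0.58 of the members. The members' median was below that of all genes with either scaling and after quantile normalisation. No test of the difference between lists was made.

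Of the 9 regulators of nuclear genes for mitochondria listed, 8 were tested. Nrf1 rose by 1.30 ± 0.04 (adjusted p = 3.64e-15) and Gabpb1, a partner of GABPA, by 1.06 ± 0.03 (adjusted p = 1.53e-14), at 0.41 and 0.17 with total reads. Yy1 stood at 0.26 ± 0.04 (adjusted p = 3.22e-06) and at -0.63 with total reads. Gabpa fell, at -0.46 ± 0.05 (adjusted p = 2.61e-07), as did the coactivator gene Pprc1, at -1.16 ± 0.07 (adjusted p = 5.06e-11). The falls of Esrra, a nuclear receptor, at -2.75 ± 0.22 (adjusted p = 3.18e-09) and of the coactivator gene Ppargc1b, at -3.81 ± 0.32 (adjusted p = 5.85e-09), were larger. Myc, a regulator of growth and ribosome production, had 3472 ± 23.9 normalised counts (SD, n = 2) in wild type E12.5 R1/2 and 467 ± 94.4 (SD, n = 3) in R3, and fell by 3.06 ± 0.17 over all groups (adjusted p = 2e-11). Ppargc1a had group means of at most 0.636 and was not tested.

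Genotype was compared as Gata1s minus wild type. Averaged over both sorts and days, 14 members were lower and 8 higher in Gata1s, against 28.1% and 17.9% of all genes tested. The median difference was -0.06, against -0.05 for all genes, and single genes ran from -0.40 for Mrps12 to 0.40 for Mrpl24. The share of members called was therefore below that of all genes in both directions. With total reads the split was 14 higher and 4 lower, since that scaling moved the median of all genes to 0.07.

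In the R1/2 sort few members differed. At E12.5 Mrpl19 (0.27) and Mrps14 (0.25) were higher and Mrpl16 (-0.30), Mrpl34 (-0.27) and Mrps17 (-0.27) lower, against 9.55% of all genes called higher and 10.3% lower. At E14.5 Mrps34 (0.42), Mrpl19 (0.38), Mrpl17 (0.34) and Mrpl1 (0.31) were higher and Mrps12 (-0.29) lower, against 8.13% and 9.73%. Mrpl19 had 926 and 1051 normalised counts in wild type and 1257, 1304, 1127 and 1060 in Gata1s at E12.5, and 841 and 775 against 1090, 1013 and 1024 at E14.5. The Gata1s libraries were higher at both days without overlap, by 1060 against 1051 at the closest. At E12.5 its MS libraries had 1051 in wild type against 1127 and 1060, and its JC libraries 926 against 1257 and 1304. None of the 5 calls at E12.5 was kept under every alternative, and without weights only that of Mrpl16 was kept. Without wild type E14.5 R1/2 replicate 1, the library with the high neutrophil and monocyte markers, 3 members were higher and 0 lower at E14.5, and without Gata1s replicate 1 there were 2 calls.

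**Figure D5:**
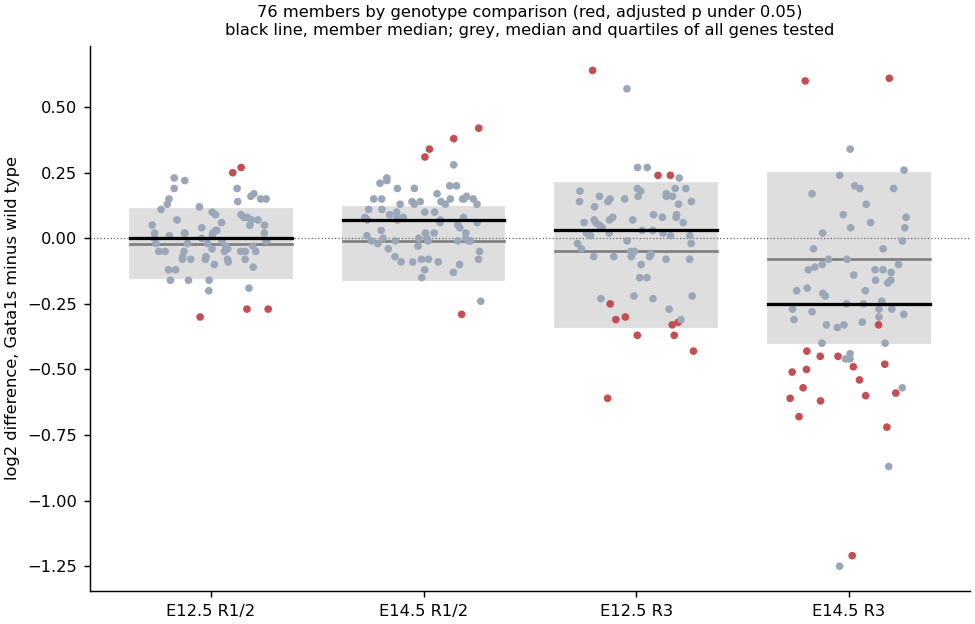
Differences on the log2 scale between Gata1s and wild type of the 76 members (points) in each sort and day, with the authors' scaling. Red points are members called, black lines the members' median, and grey the median and quartiles of all genes tested. Differences in R3 run from 0.64 (Mrpl24) to -0.61 (Mrpl53) among members called at E12.5 and from 0.61 (Mrpl54) to -1.21 (Mrpl47) at E14.5; with total reads 56 members are called higher and 0 lower in E12.5 R3.

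In E12.5 R3 the number of members called depended on the scaling. With the authors' scaling 3 members were higher and 9 lower, against 13.8% and 24.7% of all genes, with a median of 0.03 against -0.05. With total reads 56 were higher and 0 lower, with a median of 0.42 against 0.36, and calls over all genes turned from 1246 higher and 2229 lower to 4488 and 808. In this group globins took 8.5 to 9.7% of counts for wild type, against 3.1 to 3.3% for Gata1s, and 6 of the 7 erythroblast markers were lower in Gata1s (median -1.11). What part these differences have in the members' values was not tested. Without Gata1s E12.5 R3 replicate 1 there were 7 calls. Within the MS libraries, which hold 1 wild type library, 5 members were higher and 4 lower, and edgeR, with a scaling of its own, called 9 higher and 5 lower.

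Mrpl24 (uL24m), an early assembly protein in bacteria, was the member with the highest called difference in E12.5 R3. It had 408, 456 and 394 normalised counts in wild type and 644 and 683 in Gata1s. At E14.5 R3 it had 273 and 288 in wild type and 446 and 412 in Gata1s, and in R1/2 the genotypes overlapped at both days. The differences in R3 were 0.64 ± 0.11 (adjusted p = 0.000192) at E12.5 and 0.60 ± 0.18 (adjusted p = 0.0161) at E14.5, and 0.40 ± 0.06 (adjusted p = 5.39e-05) over all 4 comparisons. The call at E12.5 and that of the mean were kept under every alternative tried, and that at E14.5 was not.

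Mrpl53 was lower in Gata1s R3, with 515, 555 and 555 normalised counts in wild type and 326 and 350 in Gata1s at E12.5, and 615 and 689 against 435 and 458 at E14.5. The genotypes did not overlap in R3 at either day. The differences were -0.61 ± 0.12 (adjusted p = 0.000924) and -0.45. With total reads the first was -0.20 (adjusted p = 0.126) and was not called. Mrps12 (uS12m), part of the decoding centre, had 404, 336 and 274 in wild type and 255 and 210 in Gata1s E12.5 R3, and 425 and 297 against 236 and 183 at E14.5. Its Gata1s libraries were the lowest at both days. The differences were -0.37 and -0.72 ± 0.18 (adjusted p = 0.00722), the first of which became 0.01 with total reads. Mrps12 was also called lower in MS libraries, the prefix of all Gata1s R3 libraries.

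In E14.5 R3 the differences leaned downwards. Of the 76 members 19 were called, 17 lower and 2 higher in Gata1s, against 30.7% of all genes called and 17.3% called lower, with a median of -0.25 against -0.08. Counted by overlap alone, 41 members were lower in both Gata1s libraries than in both wild type libraries and 5 higher, against 32.7% and 26.4% of all genes. The calls rest on few libraries: 4 were left without wild type replicate 1, 7 without Gata1s replicate 1 and 1 without Gata1s replicate 2. Within MS libraries 4 were called, all lower, and with total reads 7 were lower and 2 higher. Wild type replicate 1, whose hepatoblast markers summed to 3697, against 331, 184 and 83.5 in the other libraries of this group and day, had the higher member sum of its group.

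Mrpl47 had the lowest called difference, with 294 and 208 normalised counts in wild type and 133 and 108 in Gata1s, at -1.21 ± 0.29 (adjusted p = 0.00427). Mrps18b had 366 and 227 against 195 and 186, at -0.68 ± 0.23 (adjusted p = 0.0372). That call was lost with total reads (-0.67, adjusted p = 0.117), with reads outside globins and after quantile normalisation. In both genes the Gata1s libraries were the lower, and the wild type libraries stood further apart than those of Gata1s. Mrpl54 (mL54) had 390 and 420 in wild type and 561 and 585 in Gata1s, at 0.61 ± 0.16 (adjusted p = 0.00854). The other 13 members called lower besides Mrps12, Mrpl47, Mrps18b and Mrpl53 lay between -0.62 and -0.33.

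In none of the 4 genotype comparisons were 46 members called, against 39.6% of all genes tested. Across the members the genotype differences of the 2 days correlated in R1/2 at r = 0.71 (rho 0.72), against 0.81 and 0.73 over all genes. In R3 the values were r = 0.15 (rho 0.20), against 0.63 and 0.41. The days share no libraries but share the prefix term.

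A test of the genotype difference in R3 minus that in R1/2 called 9 members lower and 1 higher, against 14.3% and 8.45% of all genes. Mrpl24 was the 1 higher, at 0.45 ± 0.12 (adjusted p = 0.0131). The number depended on the scaling, with 4 higher and 0 lower under total reads and 0 calls after quantile normalisation, where 8 were lower and 1 higher at an unadjusted p under 0.05. Leaving out wild type E12.5 R1/2 replicate 2 gave 16 calls, and leaving out Gata1s E14.5 R3 replicate 2 gave 4. In R3 the genotype difference at E14.5 minus that at E12.5 was called lower for 9 members and higher for 0, against 6.47% and 15.2% of all genes, with a median of -0.25 against -0.00. At an unadjusted p under 0.05 limma had 20 lower and 3 higher, and edgeR called 18 lower and 2 higher. With total reads 37 were lower. That scaling also raised the median of all genes in E12.5 R3, which is subtracted here, so this count is not one about the members alone. Shares of all genes are not given for the unadjusted, edgeR and total-reads counts. Those counts therefore do not show a change particular to the members. Without Gata1s E14.5 R3 replicate 2 there were 0 calls, without wild type E14.5 R3 replicate 1 there was 1, and without either wild type E12.5 R1/2 library there were 15.

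By genotype, the regulator Nrf1 was lower in Gata1s E12.5 R3 with the authors' scaling, with a difference of -0.56 ± 0.08 (adjusted p = 3.06e-05). Its group mean was 2487 normalised counts in wild type against 1694. Total reads raised the median of all genes in this group. Over the 4 comparisons 2 of 8 regulators, Nrf1 and Gabpb1, were lower. With total reads or reads outside globins 0 regulators were called, and after quantile normalisation 2 were lower. Of all genes tested 28.1% were lower and 17.9% higher over the 4 comparisons, with a median of -0.05. Of 24 assembly factors 10 were lower, or 41.7%, and 0 higher (median -0.16), which became 3 and 3 with total reads. Of 75 subunits of oxidative phosphorylation 26 were lower, or 34.7%, and 6 higher, or 8% (median -0.08). This turned to 6 lower and 23 higher with total reads and to 10 and 13 after quantile normalisation. Gadd45gip1 (mL64), a mitoribosomal protein outside the naming rule, was higher in Gata1s at 0.51 ± 0.06 (adjusted p = 2.92e-06).

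Embryonic day was compared as E14.5 minus E12.5 over both genotypes and sorts. Of the 76 members 44 were lower and 6 higher at E14.5, against 29.6% and 31.7% of all genes, with a median of -0.16 against -0.01. The largest called differences were those of Mrps6 (-0.86 ± 0.21, adjusted p = 0.00255), Mrps2 (-0.62 ± 0.08, adjusted p = 4.01e-06), Mrps18b (-0.61 ± 0.07, adjusted p = 3.17e-06) and Mrpl12 (-0.51 ± 0.07, adjusted p = 1.34e-05). Mrps21 was higher, at 0.36 ± 0.06 (adjusted p = 9.82e-05), and the other 5 lay between 0.10 and 0.19. With total reads 75 members were lower and 0 higher, with a median of -0.54 against -0.39 for all genes, and Mrps21 stood at -0.02. Calls over all genes turned from 2859 higher and 2668 lower to 871 and 6644.

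Mrps21, Mrpl14 and Mrpl53 were thus higher both with maturation and with day, and Mrps18b, Mrpl12, Mrpl19, Mrpl47, Mrps35 and Mrps6 lower with both, at the authors' scaling. With total reads the first 3 lay at -0.02, -0.20 and -0.22 for day. The other 6 were lower with that scaling too, but it moved the median of all genes from -0.01 to -0.39 for day. It was thus no check on falls. Other lists moved likewise by day: 15 of 17 translation factors were lower (median -0.29), as were 15 of 24 assembly factors (-0.32) and 16 of 20 synthetases (-0.32). After quantile normalisation 9, 12 and 10 were lower in that order. Of 75 subunits of oxidative phosphorylation 54 were higher (0.27), or 9 higher and 38 lower with total reads. After quantile normalisation 25 of these subunits were higher and 20 lower, with a median of 0.06, against -0.04 for all genes. Of the cytosolic ribosomal proteins 12 were higher and 17 lower (-0.02), and 77 were lower with total reads and 73 after quantile normalisation.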

How the data were processed

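RNA libraries of sorted mouse fetal liver erythroblasts were analysed, 20 of the 60 samples of the series, without its chromatin samples. Gene by gene the authors deposited a signal in normalised counts, from libraries that were directional and made from polyadenylated RNA, per the labels. The submitters' processing notes name TopHat2, HTSeq, DESeq2, Trim Galore and Bowtie2, with builds mm10 and mm9, and the role of each for RNA is not given. Left out were 27 of 23420 entries, which have a date for a name and hold 0.2 to 0.36% of a library, and 1 column that matched no sample.

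The smallest value above 0 was taken as 1 read, and 100.0% of values were then whole reads (tolerance 0.001). Libraries held 6.9 to 32.7 M reads, which sets the precision of low values. The fit used limma 3.58.1 (R 4.3.3) on log2 of normalised counts with 1 added, in all libraries, with 8 group means, a term for the prefix, and voom weights from the reads, for the 9016 genes with a mean of at least 50. Residual degrees of freedom were 11, and 5 more came from the prior. Tests are two-sided, with Benjamini-Hochberg adjustment over all genes. On this scale changes of low genes are understated. Comparisons were R3 against R1/2, Gata1s against wild type, the differences of the latter between sorts and between days, and E14.5 against E12.5. Lists are described by counts and medians, without a test. One marker gene is not reported here. The choice of this gene family and of the lists was made with earlier results of these data known.

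Members named are the 8 largest called changes each way in the means and in the difference between sorts, the 3 largest each way in single comparisons, and the 3 highest and lowest in level. Of other lists, the 3 smallest p-values for maturation and genotype and all regulators could be named. Mrpl40, Mrpl48, Mrpl49, Mrps28, Mrps36 and the genes of the difference between days in R3 were named after their values were seen.

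Alternatives were pseudocounts of 0.5 and 5, a mean of at least 10 and no filter, no weights, scaling to total reads, reads outside globins or the upper quartile, quantile normalisation, no prefix term, MS libraries only, the replicate number as a block, the groups compared only, the count tools DESeq2 1.42.0 and edgeR 4.0.16 run on recovered reads, and each library left out. On the recovered reads edgeR called 3924 genes higher and 4254 lower with maturation, and 1877 and 2282 for genotype. The fit was tested on simulated data of 9016 genes. For each comparison 100 genes were changed by log2 1 and 100 by log2 2, fewer than were called in the data. Smaller changes, such as most genotype differences of members, were not simulated, and the shares of false calls apply to that setting. In E12.5 R1/2, E14.5 R1/2, E12.5 R3 and E14.5 R3 the fit recovered 97, 95, 90 and 84% of genotype changes of log2 1. Of its calls 12.1, 12.2, 5.5 and 8.5% were false. Without weights 95, 90, 90 and 92% were recovered, and 3.9, 2.1, 6.4 and 19.4% of calls were false. In R1/2 the weights thus went with more false calls. For maturation the fit with weights recovered 90 to 95%, with 4.9 to 8.9% false calls. Within groups libraries correlated at 0.968 to 0.995, and no pair agreed within counting error.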

Additional observations from a re-analysis of the deposited data

Results flagged for a closer look

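In 10 members the genotype difference (Gata1s minus wild type) in R3 was not that in R1/2 by limma's test of the difference between sorts, as an average over both days. By that test 11.8% of members were called lower and 1.32% higher, less than the 14.3% and 8.45% of all genes. Mrpl24 had 0.45 ± 0.12 (adjusted p = 0.0131), the genotype difference being more positive in R3. In the other 9 it was more negative in R3. These were Mrpl47 at -0.63 ± 0.18 (adjusted p = 0.0178), Mrps18b at -0.46 ± 0.15 (adjusted p = 0.0327), Mrpl53 at -0.45 ± 0.12 (adjusted p = 0.0153) and Mrpl50 at -0.43 ± 0.14 (adjusted p = 0.0321). Mrpl19, Mrpl43 and Mrps7 each had -0.39, Mrps11 had -0.33 and Mrps5 had -0.30, with adjusted p from 0.0128 to 0.041. With total reads 4 members were called higher and 0 lower, where 9 and 1 had an unadjusted p under 0.05. Within MS libraries 3 of the 10 were called. After quantile normalisation 0 were, with 1 higher and 8 lower at an unadjusted p under 0.05.

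In 9 members the genotype difference in R3 was more negative at E14.5 than at E12.5 by the same kind of test. Of all genes tested 6.47% were called lower and 15.2% higher. Mrpl47 had -1.06 ± 0.30 (adjusted p = 0.0205), Mrpl3 had -0.76 ± 0.20 (adjusted p = 0.0114) and Mrpl2 had -0.67 ± 0.17 (adjusted p = 0.00921). Mrps5 and Mrps9 each had -0.65, Mrpl9 had -0.63, Mrps33 had -0.56, Mrps11 had -0.50 and Mrpl18 had -0.45, with adjusted p from 0.007 to 0.04. For Mrpl3 the libraries had 867, 832 and 668 normalised counts in wild type and 828 and 879 in Gata1s at E12.5, and 753 and 595 against 428 and 450 at E14.5. The genotypes thus overlapped at E12.5 and not at E14.5. The calls of these 9 were not kept within MS libraries, which hold 1 wild type R3 library per day. Both families of difference rest on the E14.5 R3 libraries, 2 per genotype.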

How the results depend on the processing

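Counts of members called for maturation (68 in the mean), for the genotype mean (22) and for day (50) in total stayed within 1.5 times under all alternatives, at 65 to 69, 15 to 27 and 40 to 55 with 1 library left out. These totals hide directions. For the genotype mean 8 higher and 14 lower became 14 and 4 with total reads, 12 and 5 with reads outside globins, and 10 and 8 with upper-quartile scaling or after quantile normalisation, and ranged over 5 to 11 and 9 to 20 with 1 library left out. For day 44 lower became 75 with total reads or reads outside globins. The single maturation counts ranged over 53 to 58 in wild type at both days, and 51 to 55 and 59 to 68 in Gata1s at E12.5 and E14.5. The single genotype counts were less stable, and the cause was not tested. In E12.5 R1/2 the 5 calls became 1 without weights, 3 without the prefix term or with the groups compared only, 8 within MS and 2 with the replicate block, and 3 to 10 with 1 library left out. In E14.5 R1/2 the 5 became 3 without weights, without the prefix term or with edgeR, 8 within MS or after quantile normalisation, and 2 to 10 with 1 library left out. Both counts of 10 came without a wild type E12.5 R1/2 library, the count of 3 in E12.5 R1/2 without Gata1s replicate 2, and 3 in E14.5 R1/2 without either wild type library.

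In E12.5 R3 the 12 became 56 with total reads, 40 with reads outside globins, 20 with upper-quartile scaling, 5 with the replicate block and 4 with the groups compared only, and 7 to 13 with 1 library left out. In E14.5 R3 the 19 became 32 without weights, 9 with total reads, 4 after quantile normalisation or within MS and 7 with the groups compared only, and 1 to 22 with 1 library left out. For the genotype difference between sorts the 10 became 4 with total reads, 2 with reads outside globins, 5 with upper-quartile scaling, 0 after quantile normalisation or with the replicate block, and 3 within MS, and 4 to 16 with 1 library left out, among them 5 without replicate 1 of wild type E12.5 R1/2, of either wild type E14.5 group or of Gata1s E14.5 R3, and 6 without Gata1s E12.5 R3 replicate 2. For that in R3 between days the 9 became 21 without weights, 37 with total reads, 32 with reads outside globins, 22 with upper-quartile scaling, 4 after quantile normalisation, 5 without the prefix term, 1 within MS, 20 with edgeR and 16 with DESeq2, and 0 to 15 with 1 library left out.

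Of 99 results for named genes, 39 kept their call under every alternative. Reversals came from scaling alone. For maturation, total reads and reads outside globins gave -0.41 and -0.29 for Mrpl33, -0.49 and -0.37 for Mrpl28, -0.50 and -0.38 for Mrpl4 and -0.44 and -0.32 for Mrps14. Total reads gave -0.00 for Mrpl14 and -0.02 for Mrps18c, and -0.02 and -0.12 for Mrps21 in wild type E12.5 and E14.5. In single comparisons the same pair gave -0.22 and -0.08 for Mrpl14 and -0.31 and -0.17 for Mrpl53 in Gata1s E14.5, and -0.27 and -0.07 for Mrps18c in wild type E14.5. For day it gave -0.20 and -0.15 for Mrpl14, -0.19 and -0.15 for Mrpl32 and Mrpl4, -0.22 and -0.17 for Mrpl53, and -0.28 and -0.24 for Mrpl51, which had -0.04 with upper-quartile scaling and -0.03 after quantile normalisation. With total reads Mrps21 had -0.02 for day and Mrps12 0.01 for genotype in E12.5 R3. Over 16 pairs of the same replicate number, between sorts or genotypes, the deviations correlated at -0.2 to 0.37, 6 of them over 0.1. Where both groups hold 2 libraries both pairs give the same value, such as 0.37 between sorts in wild type E14.5. The prefix was not removed from these deviations, and in wild type E14.5 it goes with the replicate number. Replicate numbers were not taken to pair the samples. Names of MS libraries run on from an R1/2 to an R3 library of the same genotype and day, an order that replicate numbers do not always follow. Whether such neighbours come from the same preparation is not said in the labels. Pairing by that order was not tested, and the main fit treats R3 and R1/2 libraries as unpaired. With the replicate block 18 of the 99 results missed the threshold. Where 1 library was left of a group, as within MS, it was assumed to vary like the other groups. Depth limits Mrps6 most, with 2 reads in 1 library.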

Other observations

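The prefix of the library names also went with the members' values. MS libraries had 14 members lower and 0 higher than JC libraries by limma (median -0.09), against 698 genes lower and 1220 higher of all genes tested (median 0.01). At an unadjusted p under 0.05 there were 27 members lower and 1 higher. Mrps12 was at -0.28 ± 0.05 (adjusted p = 0.00166).

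Fars2, a mitochondrial synthetase outside the members, had 843 ± 324 normalised counts (SD, n = 2) in wild type and 2635 ± 164 (SD, n = 2) in Gata1s E14.5 R3, and 532 ± 67.8 (SD, n = 3) and 466 ± 83 (SD, n = 2) at E12.5 R3. It was picked out after its values were seen.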
